A study of Mus musculus with 3 samples.

Results

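The 10 genes described here encode receptors for noradrenaline, adrenaline and dopamine, and were taken by symbol from a table of 32531 gene symbols measured in 3 libraries. They are the adrenergic receptor genes Adra1a, Adra1b, Adra1d, Adra2a, Adra2c and Adrb1 and the dopamine receptor genes Drd1, Drd2, Drd4 and Drd5. The libraries hold ribosome-bound RNA from the whole cerebral cortex of adult mice of the genotype Htr3a-Cre (NO176)::Rosa26-LSL-EGFP/Rpl10a, in which Cre made under Htr3a control turns on an EGFP-tagged ribosomal protein. Cre removes a stop sequence for good, so a cell that has once expressed Cre keeps tagged ribosomes, and an antibody against EGFP then recovers these with their mRNA (translating ribosome affinity purification, TRAP). All 3 libraries are immunopurified samples of 1 group, named replicates 1, 2 and 3, and the labels do not say whether they come from separate animals or pools. Unpurified cortex was not analysed here, so every comparison sets genes against one another within a library, and p-values speak only of how these 3 samples vary, and that variation may be technical. Sex, age beyond adult and pooling are not given. Gene counts summed to between 13951332 and 14461053 per library.

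Noradrenaline reaches the cortex from the locus coeruleus and dopamine mainly from the ventral midbrain, and both act through receptors with a bundle of membrane helices that switch on G proteins. Alpha-1 receptors couple to Gq and phospholipase C, alpha-2 and D2-like receptors to Gi, which lowers cyclic AMP, and beta and D1-like receptors to Gs or Golf, which raises it. In cortical interneurons these receptors are known to set excitability and transmitter release. Alpha-1 receptors in particular are known to depolarise several interneuron types.

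Alpha-1 receptors made up most of the receptor mRNA in this set. Adra1b, Adra1a and Adra1d together held 80.2%, 75.8% and 77.3% of the summed level of the 10 genes in replicates 1, 2 and 3, where level means TPM, that is, counts per merged exon length after scaling for depth. The summed level was 372, 374 and 377 TPM in the 3 libraries and so differed little. The Gs-coupled genes Adrb1, Drd1 and Drd5 together held 13.1% ± 2.18 and the Gi-coupled genes Adra2a, Adra2c, Drd2 and Drd4 held 9.14% ± 0.731 (SD, n = 3 libraries). By ligand, the 6 adrenergic genes summed to 333 ± 10.4 TPM and the 4 dopamine genes to 41.2 ± 8.09 TPM. Values after ± are SDs over the 3 libraries throughout. In bulk RNA, fewer cells with a transcript and less of it per cell cannot be told apart.

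**Figure D1:**
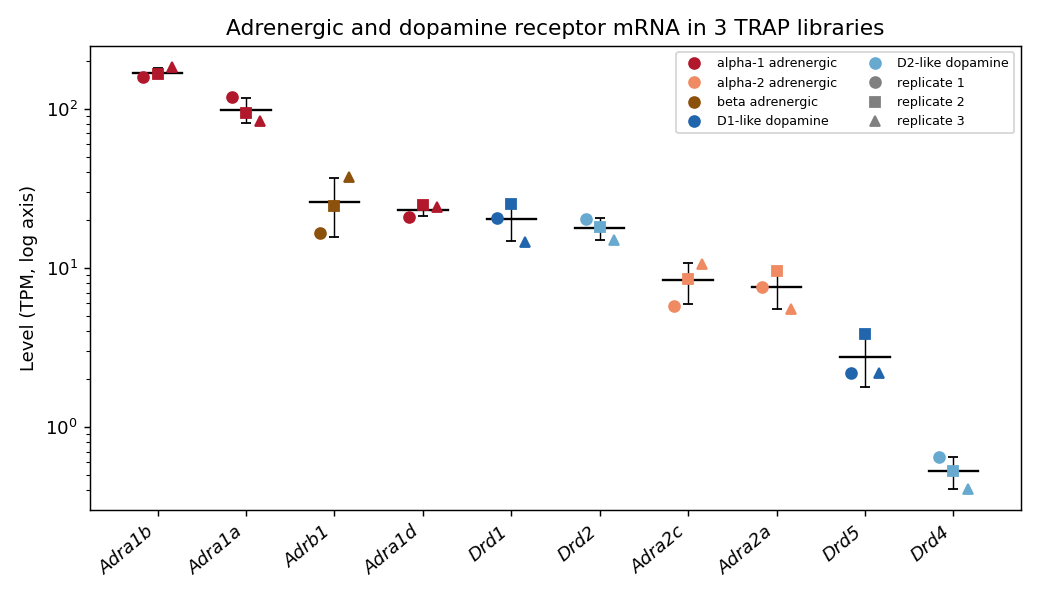
Level of each receptor gene in TPM on a log axis, ordered by mean. Symbols are the 3 libraries, coloured by receptor family, and horizontal lines and bars give the mean and SD. Adra1b and Adra1a lie at 168.9 and 98.9 TPM, apart from a middle group between 17.8 and 26.1 TPM, and Drd4 is lowest at 0.527 TPM.

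The gene models of the receptors fall into compact and long ones. Adra2c and Drd5 have a single exon, so their reads have no splice junction by which to tell mRNA from genomic DNA, and the merged exons of Adra2a form 1 block. Adra1a and Adra1b span 135918 and 126605 bases and Drd2 spans 67551 with 8 exons. Windows around transcription starts (250 bases before to 50 after, RefSeq on GRCm38.p6) were given for 8 of the 10 genes, and for Adra1b and Drd1 there were 2 windows each, whose transcripts the per-gene counts do not tell apart. These 4 windows are shown because the part of each start in the level of either gene is not known. They are written 5′ to 3′ on the minus strand, with GC boxes in capitals.
Adra1b, chr11:43901188-43901487: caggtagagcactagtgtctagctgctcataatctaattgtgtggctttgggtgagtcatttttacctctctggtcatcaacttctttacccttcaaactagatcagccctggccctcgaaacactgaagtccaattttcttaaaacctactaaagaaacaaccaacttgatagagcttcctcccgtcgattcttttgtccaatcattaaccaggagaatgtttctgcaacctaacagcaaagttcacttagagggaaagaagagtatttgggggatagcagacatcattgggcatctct
Adra1b, chr11:43836440-43836739: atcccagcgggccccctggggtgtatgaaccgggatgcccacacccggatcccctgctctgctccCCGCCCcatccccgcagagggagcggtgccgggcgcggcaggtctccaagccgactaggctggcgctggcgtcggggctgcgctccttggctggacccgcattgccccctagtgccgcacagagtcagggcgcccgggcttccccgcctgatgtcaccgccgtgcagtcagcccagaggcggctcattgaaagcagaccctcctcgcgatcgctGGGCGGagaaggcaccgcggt
Drd1, chr13:54055609-54055908: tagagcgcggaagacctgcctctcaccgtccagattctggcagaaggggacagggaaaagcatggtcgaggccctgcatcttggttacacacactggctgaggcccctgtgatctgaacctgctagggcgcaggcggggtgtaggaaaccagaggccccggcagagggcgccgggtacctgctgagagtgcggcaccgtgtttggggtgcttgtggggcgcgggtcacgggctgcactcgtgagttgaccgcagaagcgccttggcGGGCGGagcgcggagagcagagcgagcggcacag
Drd1, chr13:54054731-54055030: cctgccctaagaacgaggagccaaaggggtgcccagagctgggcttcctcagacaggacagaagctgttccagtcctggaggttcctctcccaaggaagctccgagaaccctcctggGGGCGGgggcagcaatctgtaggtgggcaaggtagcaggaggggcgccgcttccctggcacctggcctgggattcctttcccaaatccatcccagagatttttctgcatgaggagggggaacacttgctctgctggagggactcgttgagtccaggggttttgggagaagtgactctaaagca

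The upstream Adra1b window has a GC content of 42.3% and 3 CpG, and the downstream one 71.3% and 28 CpG. The 2 Drd1 windows have 65.7% and 59.3%, with 23 and 6 CpG. Over the 10 windows of receptor genes the median was 67.2% GC and 23 CpG, against 52.7% and 7 CpG over 32851 windows of all genes. The GC box GGGCGG, searched on both strands with overlaps counted, was in 8 of the 10 windows, against 35.7% of all windows, and was missing from those of Adra2c and from the upstream one of Adra1b. The TATA box letters TATAAA were in 1 window, of Adra2a, against 13.6% of all, and the cAMP response element TGACGTCA in 0 of 10, against 1.79%. A match describes these letters in the window only.

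Adra1b, an alpha-1 receptor, had 1476, 1572 and 1787 counts and levels of 158, 165 and 183 TPM in replicates 1, 2 and 3 (168.9 ± 12.7). The gene is at chromosome 11 from 43774606 to 43901210 on the minus strand of GRCm38. Adra1a, the other abundant alpha-1 receptor gene, had more counts, at 2863, 2293 and 2123, but lower levels of 119, 93.4 and 84.3 TPM (98.9 ± 18.1). Adra1a is at chromosome 14 from 66635251 to 66771168 on the plus strand. The counts of Adra1a were 1.94, 1.46 and 1.19 times those of Adra1b, and its levels were 0.752, 0.565 and 0.460 times those of Adra1b. The 2 genes therefore stood in opposite orders by count and by level in each library.

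Merged exons of the 6 annotated Adra1a transcripts cover 8728 bases, 2.04 times the 4282 bases of the longest single transcript, while those of Adra1b cover 3382 bases against 3331. On merged exons, Adra1b lay above Adra1a in 3 of 3 libraries, by 0.78 on the log2 scale with an SD of 0.35 (limma, adjusted p = 0.0163). With the longest transcript as length, Adra1a stood at 153 ± 27.9 TPM and Adra1b at 129.99 ± 9.76 TPM, and the log2 difference of Adra1b minus Adra1a turned to -0.22 (limma, adjusted p = 0.294). Without length correction it was -0.58 (limma, adjusted p = 0.0234). The difference on merged exons also lost its call without replicate 2 (limma, adjusted p = 0.131), without replicate 3 (limma, adjusted p = 0.0856) and without moderation, the sharing of spread estimates between genes (limma, adjusted p = 0.0751). The order of the 2 genes thus differed with the length used, and per-gene counts do not tell transcripts apart.

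**Figure D2:**
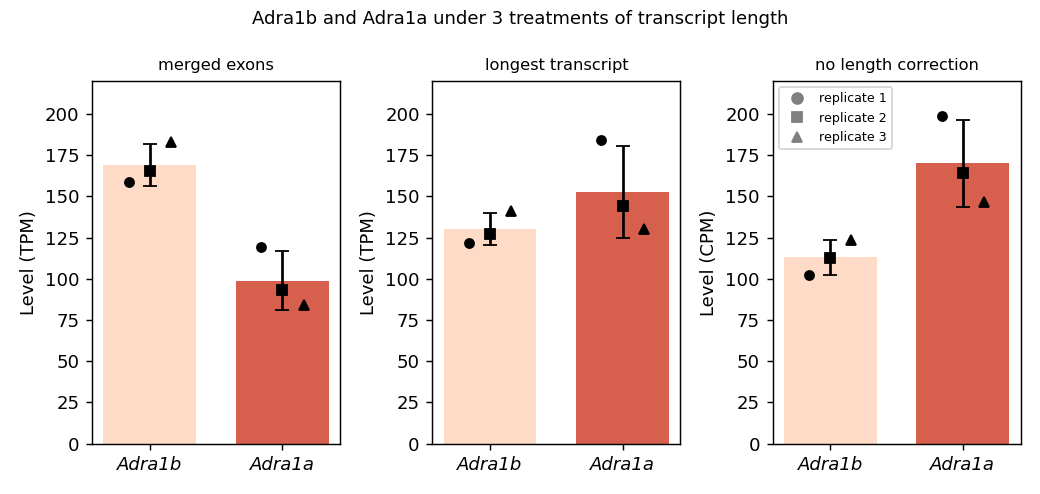
Level of Adra1b and Adra1a with merged exons as length (TPM), with the longest transcript as length (TPM) and with no length correction (CPM). Bars are means, error bars SDs and symbols the 3 libraries. The mean of Adra1b is above that of Adra1a in the left panel and below it in the other panels.

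Adra1d, the alpha-1 receptor gene with a single annotated transcript, was far below both. It had 109, 132 and 133 counts and 20.8, 24.7 and 24.3 TPM (23.3 ± 2.12), and lies on chromosome 2 from 131545850 to 131562283. Adra1b was 7.24-fold (limma, adjusted p = 1.18e-05, and 0.00920 without moderation) and Adra1a 4.20-fold above Adra1d (limma, adjusted p = 9.47e-05, and 0.0242 without moderation). The size of both differences depends on the length used. Adra1a minus Adra1d, 2.07 on the log2 scale with merged exons, was 3.10 with the longest transcript and 4.26 without length correction, and Adra1b minus Adra1d, 2.86 with merged exons, was 2.88 and 3.68. Exons of another gene on the opposite strand, Gm14285, overlap 7.74% of the Adra1d exons.

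Adrb1, the beta receptor gene of this set, had the largest SD relative to its mean of the 9 genes with at least 1 CPM (counts scaled to library depth alone) on average, at 40.1%. Its counts were 155, 232 and 365 and its levels 16.6, 24.4 and 37.4 TPM in replicates 1, 2 and 3 (26.1 ± 10.5), so that replicate 3 was 2.25 times replicate 1. The gene is at chromosome 19 from 56722199 to 56733113. Adra1a was 3.94-fold above Adrb1 in 3 of 3 libraries (limma, adjusted p = 6.70e-07), a call lost without moderation (limma, adjusted p = 0.0989). This log2 difference of 1.98 with merged exons was 2.81 when the longest transcript gave the length and 3.34 without length correction.

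Both alpha-2 receptor genes, whose products lower transmitter release as autoreceptors and also act on target cells, were low. Adra2c had 55, 83 and 106 counts and 5.80, 8.57 and 10.7 TPM (8.34 ± 2.44), with replicate 1 lowest. Adra2a had 101, 130 and 77 counts and 7.59, 9.57 and 5.52 TPM (7.56 ± 2.02), with replicate 3 lowest. The genes lie on chromosome 5 from 35278319 to 35281763 and on chromosome 19 from 54044151 to 54048982. Adra2c was above Adra2a in 1 of 3 libraries only, and their log2 difference of 0.13 (SD 0.71) was within the spread between libraries (limma, adjusted p = 0.729). How far both lay below other receptor genes depends on the length used. Without length correction, Adra2a and Adra2c had means of 7.22 and 5.70 CPM, against 8.75 CPM for Adra1d and 8.93 CPM for Drd2. Drd2 minus Adra2c was then 0.68 on the log2 scale (limma, adjusted p = 0.0413).

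Among dopamine receptor genes, Drd1 and Drd2 stood close together and Drd5 and Drd4 well below them. Drd1, the Gs- and Golf-coupled receptor, had 205, 259 and 153 counts and 20.5, 25.4 and 14.6 TPM (20.2 ± 5.40), highest in replicate 2 and lowest in replicate 3. Drd2, its Gi-coupled counterpart, had 143, 129 and 110 counts and 20.4, 18.01 and 15.0 TPM (17.8 ± 2.72), highest in replicate 1. The level of Drd1 was 1.01, 1.41 and 0.976 times that of Drd2 in replicates 1, 2 and 3, and Drd1 minus Drd2 averaged 0.16 on the log2 scale, with an SD of 0.29, short of the threshold (limma, adjusted p = 0.479). Without length correction it was 0.66 and passed (limma, adjusted p = 0.0226). Drd1 lies on chromosome 13 from 54051183 to 54055705 and Drd2 on chromosome 9 from 49340627 to 49408177. Exons of other annotated genes overlap neither gene.

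Drd5, the second D1-like receptor gene, had 19, 34 and 20 counts and 2.19, 3.84 and 2.20 TPM (2.74 ± 0.948), with replicate 2 highest. Drd1 was 7.20-fold above Drd5 in 3 of 3 libraries (limma, adjusted p = 1.37e-15, and 0.0135 without moderation). Drd5 lies on chromosome 5 from 38319367 to 38322518, and exons of Gm26560 on the opposite strand overlap 48.6% of its exons, so its level is uncertain. Drd4, the second D2-like receptor gene, on chromosome 7 from 141292006 to 141296464, had 6, 5 and 4 counts. Exact Poisson 95% intervals of these counts run from 2.20 to 13.1, from 1.62 to 11.7 and from 1.09 to 10.2, which cover counting error only. At 0.527 ± 0.117 TPM and a mean of 0.351 CPM it was under the minimum of 1 CPM and had no place in the main test. In the fit with no such minimum, Drd2 was 28.7-fold above Drd4 on the scale of log2(TPM + 0.1) (limma, adjusted p = 3.67e-05).

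Set in order, the levels were Adra1b, Adra1a, Adrb1, Adra1d, Drd1, Drd2, Adra2c, Adra2a, Drd5 and Drd4. Of 36 pairs among the 9 tested genes, 29 passed the test and 30 kept the same order in 3 of 3 libraries. Each pair was read from a fit of all 12451 tested genes against the lower gene of the pair. In these fits, 11.1% of genes were called above Adra1a, 33.3% above Adrb1, 41.0% above Adra1d, 40.3% above Drd1, 45.2% above Drd2, 63.0% above Adra2c, 64.2% above Adra2a and 83.9% above Drd5. All genes of a fit share the noise of the one they are set against, so pooling the spread over genes makes these p-values too small.

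Of 8 neighbouring pairs in this order, 4 passed: Adra1b over Adra1a, Adra1a over Adrb1, Drd2 over Adra2c (2.17-fold; limma, adjusted p = 0.000849) and Adra2a over Drd5 (2.72-fold; limma, adjusted p = 5.57e-05). Without moderation only Adra2a over Drd5 kept its call among these (limma, adjusted p = 0.0198). Adrb1 over Adra1d (log2 difference 0.09, SD 0.48; limma, adjusted p = 0.703), Adra1d over Drd1 (0.24, SD 0.43; limma, adjusted p = 0.547), Drd1 over Drd2 and Adra2c over Adra2a did not pass. Among Adrb1, Adra1d, Drd1 and Drd2, none of the 6 pairs passed with merged exons as length. Without length correction, Adrb1 minus Adra1d was 0.92 (limma, adjusted p = 0.00655) and Adra1d minus Drd1 turned to -0.69 (limma, adjusted p = 0.0172), and both passed, as did Drd1 minus Drd2. Each of Adra1a and Adra1b exceeded each of the other 7 tested genes in 3 of 3 libraries, and all 14 of these pairs passed, 12 of them also without moderation, where the exceptions were those with Adrb1 as the lower gene.

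The spread of the receptor genes over the libraries was set against counting noise alone, which most genes exceed in separate samples. When counts were set against scaled library sizes by a chi-square test, it called 7 of the 9 tested receptor genes, against 74.3% of all 12949 genes with at least 1 CPM, so the share is near that of all genes. Adra1d (adjusted p = 0.503) and Drd5 (adjusted p = 0.0723) did not pass. Without replicate 3, 2 of 9 passed, Adra1a and Adrb1, against 54.9% of all genes. The biological coefficient of variation from edgeR ran from 14.3% for Adra1b to 39.8% for Drd5, with a median of 22.4% over all genes.

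**Figure D3:**
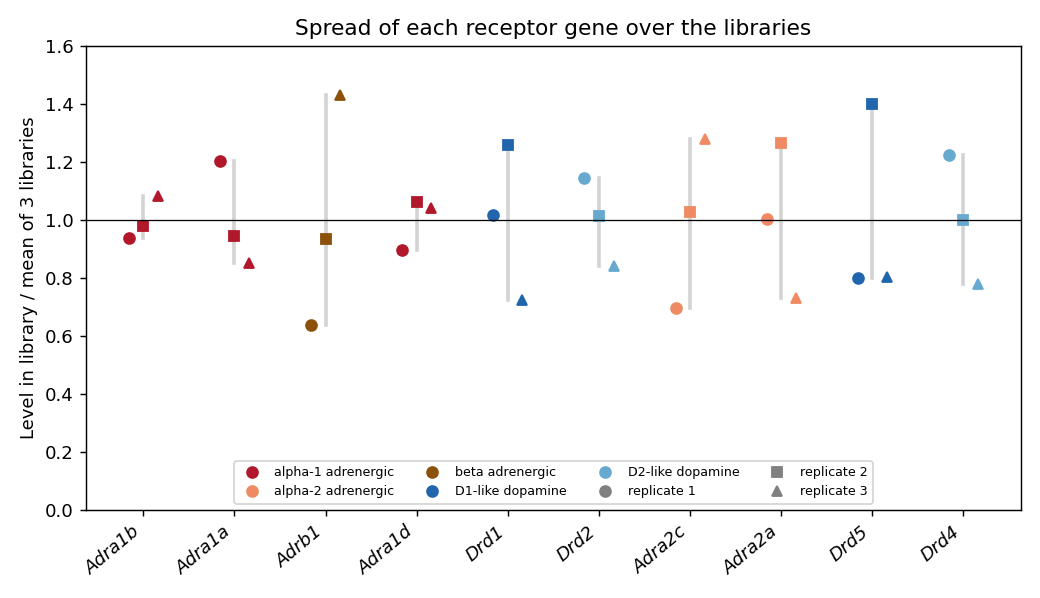
Level of each receptor gene in each library divided by its mean over the 3 libraries (y axis, a linear ratio), with genes ordered by mean level on the x axis. Symbols are libraries, colours families and grey lines the range. Adra1b and Adra1d lie closest to 1, while replicate 3 is highest for Adra1b, Adrb1 and Adra2c and lowest for Adra1a, Drd1, Drd2, Adra2a and Drd4.

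The genes did not share 1 pattern over the libraries. Adra1a, Drd2 and Drd4 were highest in replicate 1 and lowest in replicate 3, an order that 21.5% of all tested genes showed. Adra1b, Adrb1 and Adra2c were highest in replicate 3 and lowest in replicate 1, as were 27.0% of tested genes. Drd1 and Adra2a were highest in replicate 2 and lowest in replicate 3, as were 10.2%. Markers of cell types showed these orders as well. Of 8 Htr3a class interneuron markers, 5 had the order of Adra1a and 0 that of Adrb1, and their summed level was 4156, 3268 and 3396 TPM in replicates 1, 2 and 3. Of 7 oligodendrocyte markers, 3 had the order of Adra1a and 0 that of Adrb1, with a sum of 368, 249 and 219 TPM. Of 10 excitatory neuron markers, 2 had the order of Adra1a and 4 that of Adrb1, with a sum of 901, 982 and 1133 TPM. No marker of these lists was at 0 in all libraries. The order of Adra1a was also that of 3 of 8 GABAergic, 2 of 4 oligodendrocyte precursor, 2 of 7 astrocyte, 1 of 7 medial ganglionic eminence class, 1 of 11 striatal, 1 of 7 catecholamine neuron, 1 of 6 microglial, 1 of 5 endothelial and 0 of 5 mural markers. The order of Adrb1 was that of 3 striatal, 2 astrocyte and 1 each of the GABAergic, medial ganglionic eminence class and endothelial markers, and of 0 in the other lists. The order of Drd1 and Adra2a was that of 2 each of the medial ganglionic eminence class, striatal and astrocyte markers. It was also that of 1 each of the excitatory, oligodendrocyte, precursor, microglial, endothelial and mural markers, and of 0 in the other lists. The part of these cell types in the levels of the receptor genes was not tested.

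Markers of GABAergic and of Htr3a class interneurons were present, and so were those of other cell types. Gad2, which makes GABA, stood at 2196 ± 111 TPM and Gad1, which does so too, at 519 ± 39.05 TPM, with Dlx6 lowest at 10.7 ± 1.45 TPM. Of the Htr3a class, the peptide gene Vip at 1042 ± 169 TPM, Cnr1 at 737 ± 171 TPM and Cxcl14 at 622 ± 37.5 TPM were highest and Sp8 lowest at 8.19 ± 0.971 TPM, and Htr3a, the gene that drives Cre, had 602 ± 46.2 TPM. Sst, the peptide gene of the other large interneuron class, which arises in the medial ganglionic eminence, stood above all of these at 8254 ± 552 TPM, ahead of Elfn1 at 478 ± 76.4 TPM and Pvalb at 88.2 ± 34.5 TPM, with Nkx2-1 lowest at 9.96 ± 3.67 TPM. The receptor levels are therefore those of RNA in which Sst is more abundant than any Htr3a class marker.

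Medians were 183 ± 24.1 TPM over 8 GABAergic, 468 ± 45.6 TPM over 8 Htr3a class, 80.8 ± 21.7 TPM over 7 medial ganglionic eminence class and 83.2 ± 3.22 TPM over 10 excitatory markers. For 7 astrocyte, 7 oligodendrocyte, 4 oligodendrocyte precursor, 6 microglial, 5 endothelial and 5 mural markers they were 10.003 ± 2.66, 31.7 ± 1.70, 8.80 ± 2.65, 2.51 ± 0.254, 0.563 ± 0.345 and 1.31 ± 0.403 TPM. Nrgn at 331 ± 76.4 TPM, the vesicular glutamate transporter Slc17a7 at 196 ± 56.2 TPM and Fezf2 at 92.8 ± 12.7 TPM led the excitatory markers, and Emx1 was lowest at 1.13 ± 0.646 TPM. Of the oligodendrocyte markers, the myelin genes Cnp and Mbp stood at 103 ± 30.2 and 37.3 ± 0.220 TPM, with Opalin lowest at 0.245 ± 0.246 TPM. Among astrocyte markers S100b at 29.3 ± 8.70 TPM, Gjb6 at 15.03 ± 2.37 TPM and Slc1a3 at 12.6 ± 0.421 TPM were highest and Gja1 lowest at 1.95 ± 0.547 TPM. Precursor markers ran from 1.21 ± 0.929 TPM for Cspg4 through Pdgfra and Olig2 to 24.3 ± 2.89 TPM for Olig1. Microglial markers ran from 0.111 ± 0.192 TPM for C1qa through Tmem119, Csf1r, Cx3cr1 and C1qb to 6.25 ± 2.37 TPM for P2ry12. Endothelial markers ran from 0.251 ± 0.435 TPM for Cldn5 through Cdh5, Tek and Pecam1 to 1.11 ± 0.706 TPM for Flt1, and mural markers from 0.798 ± 0.252 TPM for Pdgfrb through Myh11, Kcnj8 and Acta2 to 19.4 ± 0.320 TPM for Rgs5.

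Beside Drd1 and Drd2, which mark striatal projection neurons, the other 11 markers of those cells had a median of 13.4 ± 2.85 TPM. Penk at 686 ± 110.2 TPM, Pde10a at 54.7 ± 10.6 TPM and Foxp1 at 48.9 ± 4.24 TPM led them, and Isl1 was lowest at 0.270 ± 0.391 TPM. The sum of these 11 was 809, 780 and 998 TPM in replicates 1, 2 and 3, highest where Drd1 and Drd2 were lowest. Most of this sum was Penk, at 648, 599 and 810 TPM. Over the libraries, 2 of the 11 markers had the order of Drd1, 1 had that of Drd2 and 3 had that of Adrb1. The part of striatal cells in the levels of Drd1 and Drd2 was not tested.

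Other receptors for these ligands or for trace amines had few or no counts. Adrb3, a beta receptor of fat tissue, had 26, 2 and 9 counts (2.80, 0.211 and 0.923 TPM), a level above that of Drd5 in replicate 1. Adra2b had 9, 6 and 1 counts and Drd3 had 6, 0 and 0. For the trace amine receptor gene Taar1 no library held a count, and 0 counts allow up to 3, or 0.209, 0.215 and 0.207 CPM. None of these 4 genes reached 1 TPM in 3 of 3 libraries, against 9 of the 10 receptor genes and 11919 of 12451 tested genes. Tested genes had already passed the minimum of 1 CPM on average, and receptor genes and lists were chosen with earlier results known. This contrast may follow from these choices, so no conclusion is drawn from it. The median of the 10 was 18.2 ± 3.22 TPM, against 22.4 ± 1.29 TPM over all tested genes. Because the 10 include Drd4, which was under that minimum, these medians cover unlike sets.

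Genes for making, carrying and breaking down the ligands had a median of 4.77 ± 0.609 TPM over 12. Maoa, an oxidase that breaks down monoamines, stood at 29.6 ± 3.37 TPM and the low-affinity monoamine carrier Slc29a4 at 13.9 ± 3.73 TPM. Th, the rate-limiting enzyme of catecholamine synthesis, had 64, 54 and 114 counts (11.6 ± 4.54 TPM), with replicate 3 highest. The adrenaline enzyme gene Pnmt and the noradrenaline transporter gene Slc6a2 had 0 counts in 3 of 3 libraries. Dbh, which makes noradrenaline and was named here after its values were seen, had 0, 2 and 0 counts. Of 7 markers of catecholamine neurons, Slc6a2 and Pitx3 were among those at 0 in all libraries, and the 3 highest were Th, the vesicular monoamine transporter Slc18a2 at 8.44 ± 2.61 TPM and the dopamine transporter Slc6a3 at 1.25 ± 1.2998 TPM.

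Genes for the proteins these receptors act through had higher medians than the receptor genes, at 351 ± 21.3 TPM for G protein alpha subunits, 62.3 ± 11.1 TPM for regulators and 53.6 ± 10.2 TPM for effectors. Of 9 G protein alpha subunit genes, 7 exceeded 100 TPM in 3 of 3 libraries, against 1 of the 10 receptor genes, Adra1b. Among all tested genes, 1772 of 12451 did so. With the longest transcript as length, Adra1a also lay above 100 TPM, at 184, 144 and 130 TPM in replicates 1, 2 and 3. Gnai1 and Gnao1, of the Gi/o group, led at 2056 ± 200.04 and 1432 ± 229 TPM, ahead of Gnas, the Gs subunit, at 1343 ± 68.4 TPM. Gnai3 was lowest at 51.6 ± 9.03 TPM. Among 13 effectors, the adenylyl cyclase Adcy1 at 282 ± 23.9 TPM, the phospholipase Plcb1 at 254 ± 34.4 TPM and the potassium channel subunit Kcnj3 at 181 ± 20.7 TPM were highest, and Plcb3 was lowest at 0.732 ± 0.0852 TPM. Among 10 regulators, Rgs4 and Rgs2, which speed up the shut-off of G proteins, stood at 433 ± 79.1 and 169.8 ± 17.1 TPM, the arrestin Arrb1 at 133 ± 12.02 TPM, and the receptor kinase Grk6 lowest at 14.7 ± 3.84 TPM.

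**Figure D4:**
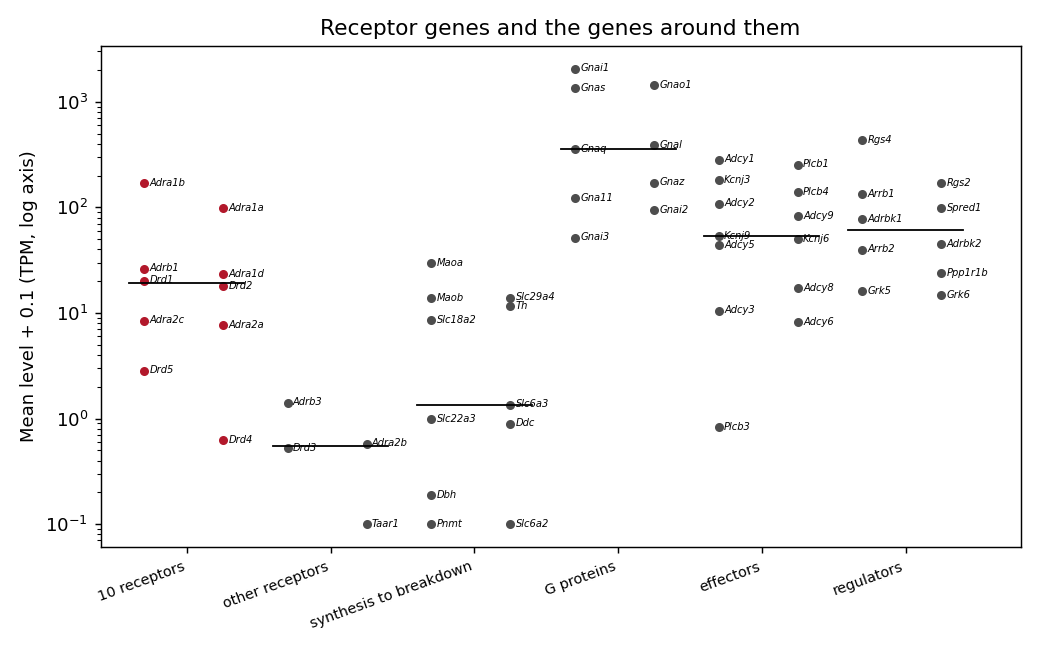
Mean level plus 0.1 TPM, on a log axis, of the 10 receptor genes (red) and of the genes shown of 5 lists (grey), with 1 dot per gene and a black line at the median of the plotted means. The median of the G protein genes lies above all 10 receptor genes, although some G protein genes lie below Adra1b and Adra1a, with Gnai3 lowest at 51.6 TPM. The other receptors lie between 0 TPM, drawn at 0.1, and 1.31 TPM.

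For the 3 receptor genes with the highest means, the protein-coding genes with the most similar level over the 3 libraries were sought among 11509. The measure was the root mean square difference of log2(TPM + 0.1). For Adra1b these were Celf5 (0.0352) and Abr (0.0478), for Adra1a Pdcd4 (0.0365) and Zfp536 (0.0444), and for Adrb1 Fam174a (0.0471) and Pdcd7 (0.0535). With 3 libraries, such closeness describes levels only.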

How the data were processed

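Whole-number read counts per gene symbol were deposited by the authors, 1 file per library, with no normalization. The submitters' processing notes list STAR 2.0.0e, HTSeq and mm10 with no roles. Which annotation, counting mode and strand setting were used is not given in the sources used here. Reads of a gene and of an antisense partner that overlaps it may therefore be mixed. Gene counts summed to 14383545, 13951332 and 14461053 in replicates 1, 2 and 3. Between 11.0% and 13.1% of records fell on no feature, and 6 lines that name no gene were left out.

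TPM was computed from these counts and merged exon lengths of GENCODE M21 (GRCm38, the assembly of mm10); 23155 symbols matched directly, 728 through older symbols, and 8648 remained without a length. Genes with at least 1 CPM on average were tested. For each receptor gene, limma 3.58.1 tested log2(TPM + 0.1) of every gene minus that gene against 0, two-sided, with Benjamini-Hochberg adjustment over all genes and a threshold of 0.05. Variation used a chi-square test with TMM scaling, adjusted over all genes, and edgeR 4.0.16 dispersions. DESeq2 1.42.0 size factors were an alternative. R 4.3.3 and Python 3.11.15 were used, and both tests were run on simulated data. The simulated counts had a single fixed spread for all genes in the limma test and counting noise alone in the chi-square test. These runs therefore do not cover the spread between these libraries. Receptor genes and lists were chosen with earlier results of these data known. Every gene of lists of 6 or fewer was named, and of longer lists the 3 highest genes, the lowest and any at 0, except for some genes that are not reported here.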

Additional observations from a re-analysis of the deposited data

How the results depend on the processing

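Of the 36 pairs, 29 passed as reported, 22 without moderation, 27 in the same direction without length correction, where 2 more passed in the opposite direction, 28 with the longest transcript as length and 28 to 30 when a replicate was left out. Another pseudocount (1 or 0.01 TPM), another filter, TMM scaling or DESeq2 size factors left this count at 29. No length correction and leaving out replicate 3 each reversed 4 pairs, and of these 2 and 0 passed. The log2 difference of Adra1b minus Adra1a, 0.78 as reported, was -0.22 with the longest transcript and -0.58 without length correction. Without length correction Adra1d minus Drd1 was -0.69 and Adra2c minus Adra2a -0.35. Leaving out each replicate in turn gave -0.012 to 0.25 for Drd1 minus Drd2, -0.17 to 0.30 for Adrb1 minus Adra1d, -0.0079 to 0.38 for Adra1d minus Drd1 and -0.27 to 0.39 for Adra2c minus Adra2a, none of which passed. Receptor genes that varied between libraries numbered 7 as reported, 6 with library totals and 5, 7 and 2 without replicate 1, 2 and 3, against 74.3%, 75.1%, 42.7%, 62.4% and 54.9% of all genes in the same order of settings. The cause was not tested. No pairing of samples between groups was possible because the samples form 1 group, and only genes were paired, within each library. Counts of Drd4 and Drd5 are too low for small differences to be detectable at this depth.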
